A study of Mus musculus with 2 samples.

Results

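The DNA replication machinery was represented by 48 genes, which encode the proteins that load and form the replicative helicase (21 genes), the replicative polymerases (12), the sliding clamp and its loader (6), the single-strand binding protein (3) and proteins of the moving fork (6). They were taken from a fixed list of gene symbols, and all 48 matched 1 gene each in the GENCODE M21 annotation, out of 21938 protein-coding genes on chromosomes 1 to 19, X and Y. For each gene, GABPα peaks within 1000 bp of an annotated transcript start were collected from the deposited list of 6782 peaks, and where there was none the distance to the nearest peak was measured. Of the 48 genes, 23 had a peak in that window, each of them had exactly 1, and no peak was shared between them.

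The assay was ChIP-seq for GABPα, in which DNA bound by a protein is pulled down with an antibody and sequenced. CD4+ T cells had been purified with magnetic beads from C57BL/6 animals described as wild-type, and no deletion, transgene or stimulation is given for them in the labels. The paper uses that name for littermates with floxed Gabpa alleles (Gabpa f/f), and it gives no further genotype for the ChIP animals. There was 1 library from the anti-GABPα pulldown and 1 input library of chromatin DNA without antibody, against which the authors ran MACS2 with 0.01 as the limit on q. The number, sex and age of the mice are not given in the labels, and a list of positions holds no marker that could check the labelled cell type. With 1 library there are no replicates, so no p-value is given and intervals, which are Wilson 95% intervals, cover counting error only. The score column of the list is empty, so height, fold and depth are unknown, and a gene without a peak is one at which no interval passed the cutoff in this library.

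GABP is a transcription factor of the ETS family. Its α subunit binds DNA at sites with a GGAA core and its β subunit activates transcription, and it is known for binding close to the starts of housekeeping genes. Before S phase, the origin recognition complex (ORC) with Cdc6 and Cdt1 loads the Mcm2-7 ring onto DNA, and Cdc45 and the GINS complex then turn the ring into an active helicase. Polymerase α-primase lays down primers, polymerases δ and ε extend them while held by the PCNA clamp that replication factor C (RFC) loads, replication protein A (RPA) coats the single strands, and Fen1, Dna2 and DNA ligase 1 join the Okazaki fragments. Resting T cells have to build this machinery up before they can divide, and E2F factors are the best known regulators of its genes.

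The sequences under the peaks show what the group had in common and where its members differed. Sites were searched on both strands as CCGGAAG, as its shorter forms CGGAAG and CCGGAA, and as the bare core GGAA, which the longer forms contain. Each site is printed 5′ to 3′ on the strand that carries it, with 10 bases to either side and the site in capitals, and coordinates are those of GRCm38 (mm10). The first set gives, for 14 genes from every functional group, the copy of CCGGAAG nearest the peak midpoint.
Orc1, chr4:108579256-108579282, plus strand: cagcttcgtaCCGGAAGctgtggcgta
Orc3, chr4:34614943-34614969, minus strand: cgcctccgcgCCGGAAGtcgcctctgc
Orc5, chr5:22550351-22550377, plus strand: agctttccggCCGGAAGcctgggctgg
Cdc45, chr16:18812283-18812309, minus strand: gagaggctcgCCGGAAGtgacggaaca
Gins3, chr8:95633376-95633402, minus strand: gatgagtcggCCGGAAGtcctcctgca
Gins4, chr8:23237774-23237800, minus strand: tccccgccttCCGGAAGtatgttctat
Pola1, chrX:93632212-93632238, plus strand: ggacttccgcCCGGAAGgccactgacg
Pold3, chr7:100121608-100121634, plus strand: gcgagaccgaCCGGAAGtgaggcgcga
Pole4, chr6:82653046-82653072, plus strand: cctagctgagCCGGAAGtccggatgct
Rfc3, chr5:151651222-151651248, minus strand: tcgccgggtgCCGGAAGtgacgtcgca
Rfc4, chr16:23127761-23127787, minus strand: cacccgcgcgCCGGAAGtgacgttatt
Rfc5, chr5:117389056-117389082, minus strand: gggacggaagCCGGAAGccggaggcga
Rpa3, chr6:8259276-8259302, plus strand: ctcaaggcttCCGGAAGtactggtaga
Fen1, chr19:10204211-10204237, minus strand: cgatccgccaCCGGAAGaacacgtcgg
The base after the site was T in 10 of the 16 member peaks that held CCGGAAG (62.5%, 95% interval 38.6 to 81.5), C in 4, G in 1 and A in 1, beside 48.2% with T among all peaks near protein-coding starts that held the site.

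The second set gives the peaks without CCGGAAG, because Mcm3, Mcm5 and Pcna, which encode ring and clamp subunits, are among them. At Mcm3, Mcm7, Prim2, Pcna and Rfc2 the shorter form was present and the capitals mark CGGAAG. The Mcm3 copy lay 118 bp from the peak midpoint, and the others from 0 bp at Prim2 to 16 bp at Rfc2. At Orc2 and Mcm5 neither CCGGAAG nor CGGAAG was present, but each peak held CCGGAA 1 time, and the capitals mark the GGAA nearest the midpoint.
Mcm3, chr1:20820286-20820311, plus strand: tttcccgccaCGGAAGtttatggtgg
Mcm7, chr5:138171255-138171280, minus strand: tagaggcgggCGGAAGtggcgctacc
Prim2, chr1:33669786-33669811, plus strand: gaacgggaagCGGAAGtgatgcgcag
Pcna, chr2:132252763-132252788, plus strand: ccgccaagagCGGAAGcgggaagagt
Rfc2, chr5:134582722-134582747, minus strand: gccgctttgaCGGAAGtctgggtcct
Orc2, chr1:58505113-58505136, minus strand: ccccggaaacGGAAactgaagaga
Mcm5, chr8:75109384-75109407, plus strand: aatggagaccGGAAagagttgact
These 7 peaks came from 3 groups, 4 of them from helicase genes, 1 from a polymerase gene and 2 from the clamp and its loader.

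CCGGAAG lay in 16 of the 23 member peaks (69.6%, 49.1 to 84.4), beside 57.2% of the 3459 peaks near protein-coding starts. The shorter CGGAAG lay in 21 of 23 (91.3%, 73.2 to 97.6), beside 76.6%, and CCGGAA in 19 of 23 (82.6%, 62.9 to 93), beside 70.9%. All 3 intervals hold the background value. By group, CCGGAAG was in 7 of the 11 helicase peaks, 3 of the 4 polymerase peaks, 3 of the 5 clamp and clamp loader peaks, both RPA peaks and the Fen1 peak, so no group stood without it. In these 16 peaks the copy nearest the midpoint lay a median of 18.75 bp from it, from 1 bp at Orc3 and Pola1 to 93.5 bp at Cdc45. Among all peaks near protein-coding starts with the site the median was 17.5 bp.

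GABPα peaks stood in the window at 23 of the 48 replication genes (47.9%, 34.5 to 61.7), whereas 17.7% of all protein-coding genes (3880 of 21938) had one. The difference from the 21890 other protein-coding genes was 30.3 percentage points (Newcombe 95% interval 16.8 to 44.1). Replication genes had more annotated starts than most, with a median of 5 distinct starts against 3, and more starts give more windows. Among protein-coding genes with 4 to 7 distinct starts 24.2% had a peak, a class that leaves out members with fewer or more starts. Among those whose promoter GC content lay in the range of the members 18.7% did, but that range is wide and holds 19784 of the 21938 genes. CpG, a C followed by G, was counted from 250 bp upstream to 50 bp downstream of the gene start. The median count was 22 in the 48 members and 11 in all protein-coding genes. Among protein-coding genes it was 21 with a peak and 8 without, and among the members 19 and 25. The part of start number, GC content and CpG count in the difference was not tested. In all 23 peaks every sequence of 36 bases, the length of the reads, occurred at a single place in the genome, as it did around the gene starts of 24 of the 25 members without a peak (74.3% at Gins1).

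Among the functional groups, the share with a peak was highest for the clamp and clamp loader, at 5 of 6 genes (83.3%, 43.6 to 97). Then came RPA with 2 of 3 (66.7%, 20.8 to 93.9), helicase loading and helicase with 11 of 21 (52.4%, 32.4 to 71.7), the polymerases with 4 of 12 (33.3%, 13.8 to 60.9) and the fork proteins with 1 of 6 (16.7%, 3.01 to 56.4). Of the 10 pairs of groups, 8 had an interval of the difference that held 0. The clamp and clamp loader exceeded the fork proteins by 66.7 points (10.5 to 86) and the polymerases by 50 points (1.66 to 73.8), without adjustment for the number of pairs. The lower bound against the polymerases lay close to 0. The clamp and clamp loader fell to 4 genes when a peak had to cover a start, and also from gene starts only. The number was 4 as well with peaks at or above the median width of the list and with RefSeq starts. In each case the polymerases had 3 and the fork proteins 1, and the differences were not computed.

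**Figure D1:**
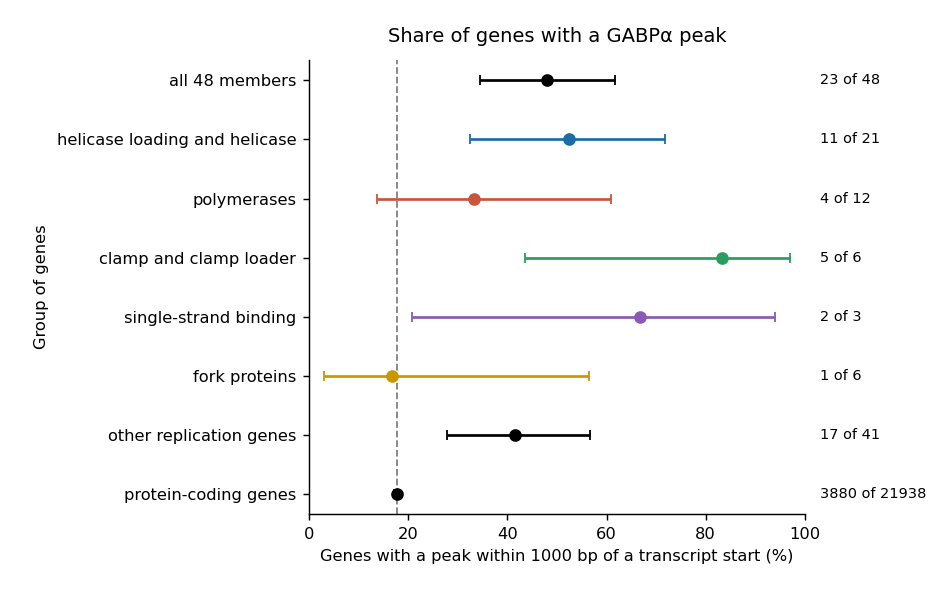
Share of genes with a GABPα peak within 1000 bp of a transcript start, in percent, for all 48 replication genes, the 5 functional groups, 41 other replication genes and all protein-coding genes; bars are Wilson 95% intervals and the dashed line marks the 17.7% of all protein-coding genes. The clamp and clamp loader lie highest at 83.3%, the fork proteins lie at 16.7%, next to the line, and the intervals of the small groups are wide.

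The genes of helicase loading and activation were split between those with and those without a peak. ORC, which marks origins, had a peak at 5 of its 6 subunit genes, Orc1 to Orc5, and the gene without one was Orc6, whose nearest peak lay 175911 bp away. Cdc6 and Cdt1, the factors that bring the Mcm ring to ORC, had none, and neither did Gmnn, which encodes the Cdt1 inhibitor geminin. The nearest peaks of these genes lay at 21685, 17861 and 69673 bp. Their share was 0 of 3, with an interval up to 56.1% that holds the 17.7% of all protein-coding genes. Of the 6 subunits of the Mcm2-7 ring, Mcm3, Mcm5 and Mcm7 had a peak and Mcm2, Mcm4 and Mcm6 did not, with nearest peaks at 49637, 40674 and 57121 bp. Within the stage of helicase activation, Cdc45, Gins3 and Gins4 had a peak while Mcm10, Gins1 and Gins2 did not, with nearest peaks at 341001, 154559 and 78738 bp. The ORC share exceeded that of Mcm2-7 by 33.3 points, with an interval from -17.2 to 67.4 that holds 0.

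The ORC peaks sat at the starts of their genes. Orc1, which encodes an ATPase of the complex, had a peak at chr4:108579197-108579455 (259 bp), from -226 to 32 of its nearest start, where negative positions are upstream. Orc2 had a peak at chr1:58504995-58505238 (244 bp), from -129 to 114. Orc3 had a peak at chr4:34614823-34615087 (265 bp), from -143 to 121, and 7 of its 11 annotated starts lay inside it. Orc4 had the widest peak of the complex, at chr2:48949224-48949536 (313 bp), which covered 5 of its 12 starts but lay 741 bp inside the gene from the outermost start, over an annotated intron. Orc5 had the narrowest, at chr5:22550299-22550433 (135 bp), with its midpoint in exonic sequence annotated as untranslated. All 5 therefore covered a start of their own gene.

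The 3 peaks of the Mcm2-7 ring differed in width, position and site. The peak of Mcm3, at chr1:20820269-20820564 (296 bp), ran from -252 to 43 and covered the start. That of Mcm5, at chr8:75109351-75109464 (114 bp), was the second narrowest of the 23 and ended before the start, from -218 to -105. That of Mcm7, at chr5:138171147-138171375 (229 bp), covered 2 of 10 starts and held CGGAAG 3 times, but lay 1047 to 1275 bp inside the gene from its outermost start. Mcm7 thus has no peak if only the outermost start of a gene is used.

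Mcm5 is shown whole on its gene strand, because its peak lies outside exons and holds only the CCGGAA form.
Mcm5, chr8:75109351-75109464, plus strand: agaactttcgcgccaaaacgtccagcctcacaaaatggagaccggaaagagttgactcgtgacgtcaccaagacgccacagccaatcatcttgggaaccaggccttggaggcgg
Its first bases hold overlapping E2F-type octamers on both strands (TTTCGCGC and TTTGGCGC), at -213 to -202 of the start, and 26 bases separate them from the nearest GGAA.

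Cdc45, which joins the ring as a helicase cofactor, had the widest peak of all 23, at chr16:18812017-18812388 (372 bp). It ended 30 bp before the Cdc45 start, from -401 to -30, and covered a start of the neighbouring gene Ufd1. Gins3 had a peak at chr8:95633344-95633504 (161 bp), from -109 to 51, and Gins4 at chr8:23237579-23237896 (318 bp), from -237 to 80. Gins4 and Rpa3 held overlapping copies of CCGGAAG on both strands, in which the reverse complement shares 4 bases with the forward site. This arrangement was in 2 of 23 member peaks (8.7%, 2.42 to 26.8), beside 1.39% of the peaks near protein-coding starts.

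Of the polymerases, polymerase α-primase had a peak at Pola1, its catalytic subunit, and at Prim2, the large primase subunit, but none at Pola2 or Prim1, with nearest peaks at 82701 and 8752 bp. The Pola1 peak, at chrX:93632148-93632300 (153 bp), ran from -145 to 7, and the Prim2 peak, at chr1:33669678-33669919 (242 bp), from -124 to 117. The paper describes GABPα binding at the Pola1 promoter as weak and under its cutoff, whereas the deposited list holds this interval. Polymerase δ had 1 peak among 4 genes, at Pold3, an accessory subunit (chr7:100121519-100121711, 193 bp, from -146 to 46). Its catalytic subunit Pold1 had its nearest peak 4967 bp away, within 1000 bp of a start of Nr1h2, and Pold2 and Pold4 had theirs at 35301 and 39636 bp.

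Polymerase ε also had 1 peak among 4 genes, at its small subunit Pole4, whereas the catalytic subunit Pole and the subunits Pole2 and Pole3 had their nearest peaks at 16311, 7156 and 53943 bp. The peak of Pole4, at chr6:82652931-82653153 (223 bp), ended 2 bp before the start of a protein-coding transcript, from -224 to -2. Annotation matters here, because the outermost Pole4 start belongs to a noncoding transcript and lies 52212 bp away. The peak is outside exons and is shown whole on the gene strand, with both copies of CCGGAAG, 1 on each strand (as CTTCCGG on the strand shown), in capitals.
Pole4, chr6:82652931-82653153, minus strand: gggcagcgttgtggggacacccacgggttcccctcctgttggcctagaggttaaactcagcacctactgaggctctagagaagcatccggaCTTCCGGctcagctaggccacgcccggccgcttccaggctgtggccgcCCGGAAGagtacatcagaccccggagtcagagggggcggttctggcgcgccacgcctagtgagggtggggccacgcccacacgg
No catalytic subunit of polymerases δ and ε had a peak, and their 2 peaks were at accessory subunits.

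The sliding clamp and 4 of the 5 subunits of its loader had a peak, and the exception was Rfc1, the large subunit, whose nearest peak lay 69483 bp away. Rfc2 had a peak at chr5:134582594-134582843 (250 bp), which covered a coding start, from -96 to 153, but lay 1228 bp inside the gene from the outermost start, which belongs to a noncoding transcript. Rfc3 had a peak at chr5:151651094-151651346 (253 bp, from -119 to 133), Rfc4 at chr16:23127677-23127859 (183 bp, from -122 to 60) and Rfc5 at chr5:117388956-117389141 (186 bp, from -94 to 91). These 4 loader peaks were alike in position: each covered a start of its gene and its midpoint lay between -31 and 28.5 bp.

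Pcna, which encodes the clamp itself, had the narrowest peak of the 23, at chr2:132252736-132252845 (110 bp). It was also the only one wholly downstream of its nearest own start: it lay in an intron, 469 to 578 bp inside the gene start, and 122 bp past the start of a retained-intron transcript. The noncoding gene AV099323 also had a start within 1000 bp of it.

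The sites of Cdc45, Rfc3 and Rfc4 printed above shared more than the motif. CCGGAAG with TGACG, letters found in a cyclic AMP response element, directly after it on the same strand was in 3 of 23 member peaks (13%, 4.54 to 32.1), these same 3, beside 2.11% of the peaks near protein-coding starts (73 of 3459). This sequence was searched after the sites had been read, so its count is a description.

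RPA had a peak at Rpa2 and Rpa3, the middle and small subunits, but not at Rpa1, the large one, whose nearest peak lay 5257 bp from a start. The Rpa3 peak, at chr6:8259147-8259438 (292 bp), ran from -265 to 26, covered starts of Rpa3 and of the neighbouring gene Umad1, and held CCGGAAG 3 times, the most of all members. The Rpa2 peak, at chr4:132767964-132768201 (238 bp), was the farthest from its own starts of the 23, ending 131 bp upstream of the nearest. It was also the one with most repeat sequence, with 28.99% of its bases soft-masked in the reference, and no member peak reached 50%.

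Of the fork proteins, only Fen1, the flap endonuclease of Okazaki fragment maturation, had a peak (chr19:10204079-10204303, 225 bp, from -134 to 90), which also covered a start of the neighbouring gene Tmem258. Its partners Lig1, DNA ligase 1, and Dna2, a helicase-nuclease, had their nearest peaks at 21163 and 277689 bp. Wdhd1, Timeless and Tipin, which tie the helicase to the polymerases or steady the fork, had theirs at 21281, 148959 and 27737 bp. The fork protection genes thus had a peak in 0 of 3 (interval up to 56.1%). The fork proteins together had one in 16.7%, close to the 17.7% of all protein-coding genes.

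**Figure D2:**
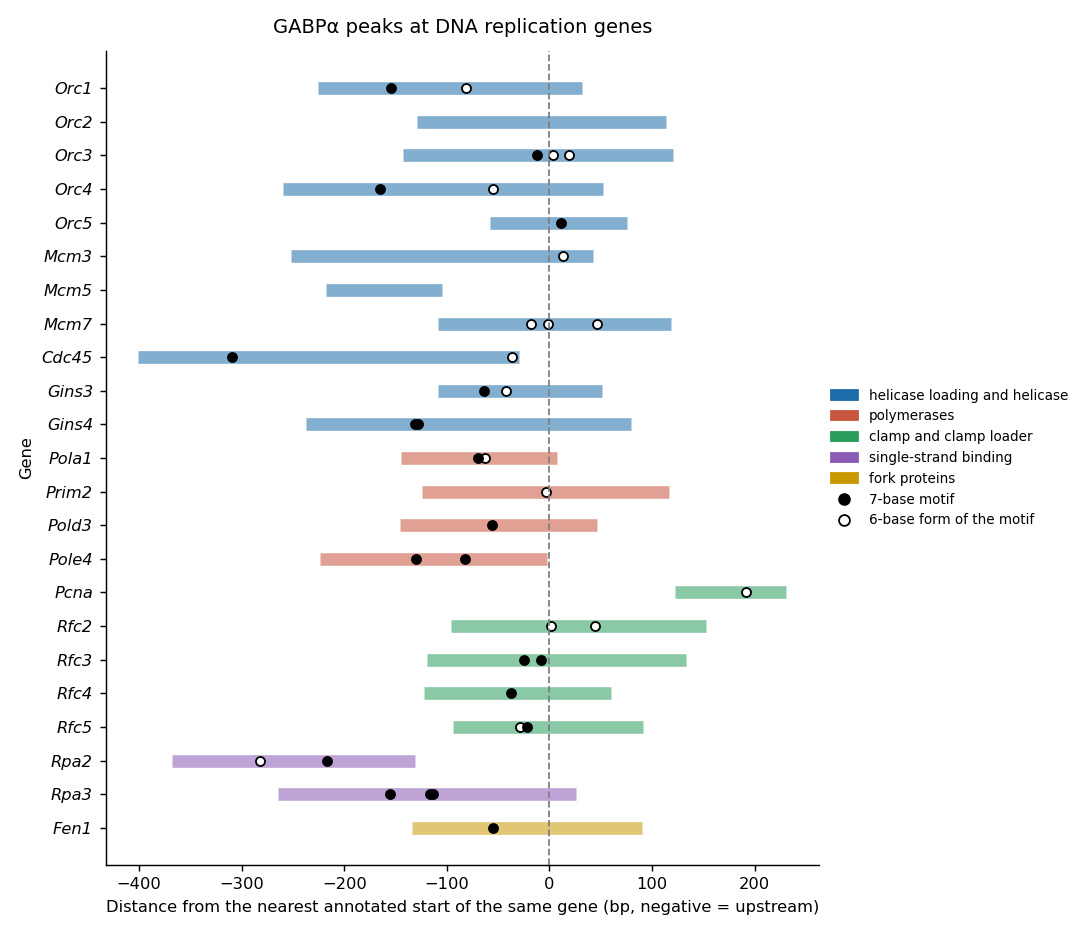
Position of each member peak relative to the nearest annotated start of the same gene, in bp with upstream to the left; bars are peaks coloured by functional group, filled circles are CCGGAAG and open circles are further copies of CGGAAG. Of the 23 peaks, 18 cover a start, the Pcna peak alone lies downstream, and those of Mcm5, Cdc45, Pole4 and Rpa2 end upstream.

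Taking position over all members, 18 of 23 peaks (78.3%, 58.1 to 90.3) covered a start of their own gene. Of the peaks near protein-coding starts, 80.2% covered a transcript start of any protein-coding gene. That measure is wider, because it would also count the Cdc45 peak, which covers a start of Ufd1. The midpoint lay upstream of the nearest start in 18 peaks, at a median of -31 bp and from -249.5 bp at Rpa2 to 176.5 bp at Pcna. The median midpoint was -78.5 bp for the 11 helicase peaks, -59.5 bp for the 4 polymerase peaks and 7 bp for the 5 clamp and clamp loader peaks, and the ranges of these groups overlapped. The window set no sharp limit here, since the farthest member inside it was Rpa2 at 131 bp and the nearest outside was Pold1 at 4967 bp.

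A peak near the starts of several genes cannot be given to one of them from its position. In 7 of 23 members (30.4%, 15.6 to 50.9) the peak also lay within 1000 bp of a start of another protein-coding gene, beside 20.6% of the peaks near protein-coding starts. These were Orc1 with Prpf38a, Orc3 with Rars2, Orc4 with Mbd5, Mcm7 with Ap4m1 at 627 bp, Cdc45 with Ufd1, Rpa3 with Umad1 and Gm45062, and Fen1 with Tmem258. Another 7 had only a noncoding neighbour in that range, and all 4 polymerase and all 5 clamp and clamp loader peaks had no other coding gene.

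Width is the only measure of size the list holds. The 23 member peaks had a median width of 238 bp (order-statistic 95% interval 186 to 259), quartiles of 184.5 and 262 bp and a range from 110 bp at Pcna to 372 bp at Cdc45. The 3459 peaks near protein-coding starts had a median of 210 bp, inside that interval, and quartiles of 159 and 267 bp, while the median of the whole list was 157 bp. Within the members, the medians were 259 bp for the helicase group (114 to 372), 208 bp for the polymerases (153 to 242) and 186 bp for the clamp and clamp loader (110 to 253), with 238 and 292 bp for the 2 RPA peaks and 225 bp for Fen1. The groups overlapped, and 19 of the 23 peaks were at least as wide as the median of the list.

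**Figure D3:**
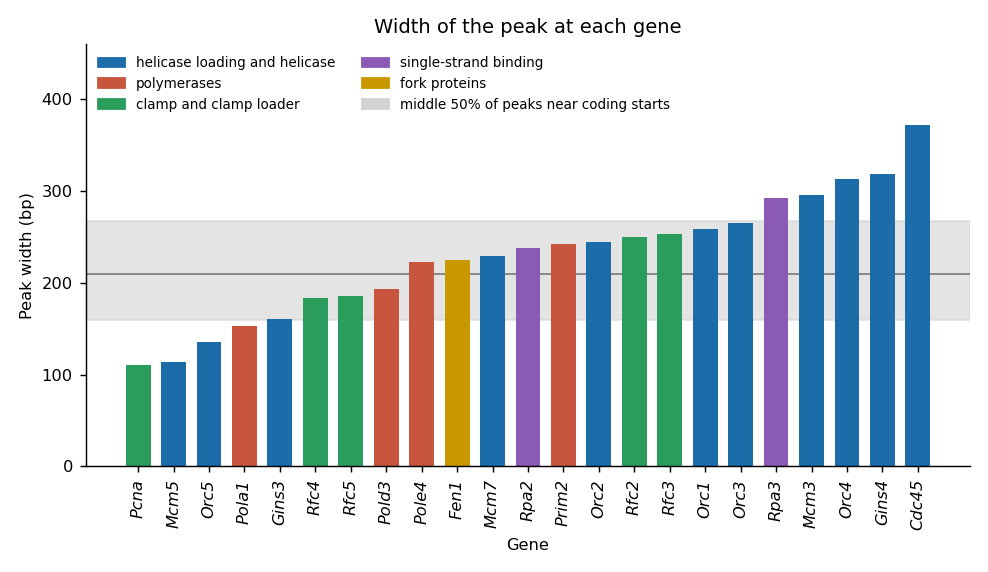
Width in bp of the peak at each of the 23 replication genes with one, in ascending order and coloured by functional group; the grey band is the middle 50% of the 3459 peaks near protein-coding starts (159 to 267 bp) and the grey line their median (210 bp). Pcna, Mcm5, Orc5 and Pola1 lie below the band, and Rpa3, Mcm3, Orc4, Gins4 and Cdc45 above it.

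The 25 members without a peak in the window had their nearest peak at a median of 40674 bp from any start, from 4967 bp at Pold1 to 341001 bp at Mcm10. For the 18058 protein-coding genes without one the median was 91699 bp. In 19 of the 25 the nearest peak lay within 1000 bp of a start of another protein-coding gene, as did that of Prim1 at Naca, that of Tipin at Map2k1 and that of Mcm6 at Dars.

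**Figure D4:**
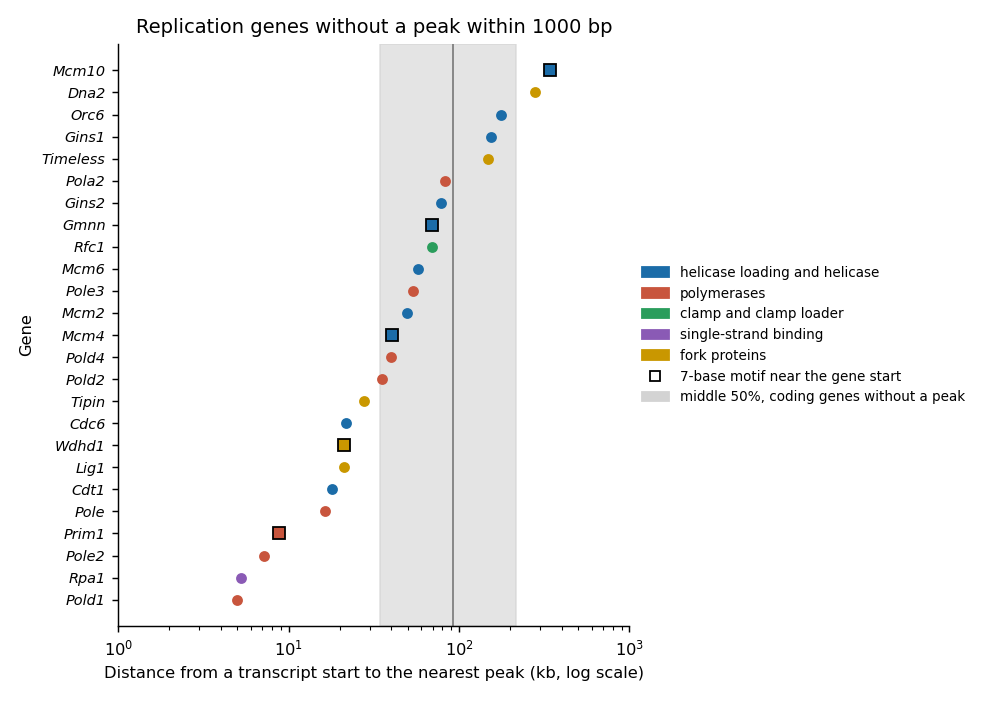
Distance from a transcript start to the nearest peak, in kb on a log scale, for the 25 replication genes without a peak within 1000 bp; colours are functional groups, squares mark genes with CCGGAAG around the gene start, and the grey band and line are the middle 50% and the median of the 18058 protein-coding genes without a peak. No gene lies between 1 kb and the 4967 bp of Pold1, and 5 genes are marked by squares.

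Whether the motif was there to be bound was read from the genome, from 250 bp upstream to 50 bp downstream of each gene start. CCGGAAG was found at 18 of the 48 members (37.5%, 25.2 to 51.6), beside 10.8% of protein-coding genes. The site contains a CpG, and these shares were not adjusted for CpG count. The number of members depended on the search, with 9 when only 100 bp upstream were searched and 29 with the shorter CGGAAG, which 19.9% of protein-coding genes had. CCGGAAG was found at 13 of the 23 members with a peak (56.5%, 36.8 to 74.4) and at 5 of the 25 without (20%, 8.86 to 39.1). Among all protein-coding genes the shares were 41.7% with a peak and 4.13% without. Read the other way, 13 of the 18 members with the motif there had a peak (72.2%, 49.1 to 87.5) and 10 of the 30 without it there did (33.3%, 19.2 to 51.2), beside 68.5% and 11.6% of protein-coding genes. The motif and the peak need not lie at the same place. Mcm7 had the motif around the gene start, but its peak, 1047 bp inside the gene, held no CCGGAAG. Orc4, Orc5, Cdc45 and Pole4 lacked it around the gene start but held it inside their peaks. Around any annotated start, 23 members had it.

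The 5 members that carried CCGGAAG around the gene start but had no peak are shown in the same way as above, because they have the letters without an interval in the list.
Gmnn, chr13:24762101-24762127, minus strand: acacttggagCCGGAAGcggagggtca
Mcm4, chr16:15637486-15637512, plus strand: agctccgcctCCGGAAGgcgccactgc
Mcm10, chr2:5012903-5012929, minus strand: gcctcaccaaCCGGAAGttctttgccc
Prim1, chr10:128015056-128015082, plus strand: ttttcagagcCCGGAAGatgcagatgg
Wdhd1, chr14:47276983-47277009, plus strand: ggagccgaacCCGGAAGtggcggcggt
The site lay at -194 to -188 of the Gmnn start, -102 to -96 of the Mcm4 start, -128 to -122 of the Mcm10 start, -102 to -96 of the Prim1 start and -142 to -136 of the Wdhd1 start. The next base was T at Mcm10 and Wdhd1 and C, G and A at Gmnn, Mcm4 and Prim1.

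E2F-type sites were searched as TTTCCCGC, TTTCGCGC, TTTGCCGC and TTTGGCGC on both strands. TTTCCCGC holds GGAA on its opposite strand, so it also counts as a bare core, though not as CGGAAG or CCGGAAG. Around the gene start E2F-type sites were found at 15 of the 48 members (31.2%, 19.9 to 45.3), beside 2.79% of protein-coding genes. Each octamer contains a CpG, and these shares were not adjusted for CpG count. Of the 23 members with a peak 6 had such a site (26.1%, 12.5 to 46.5), and of the 25 without 9 did (36%, 20.2 to 55.5), whereas among all protein-coding genes the shares were 4.64% with a peak and 2.39% without. A peak was present at 6 of the 15 members with an E2F-type site (40%, 19.8 to 64.3) and at 17 of the 33 without (51.5%, 35.2 to 67.5), and these intervals overlap widely. Among all protein-coding genes a peak was more frequent with an E2F-type site (29.5%) than without (17.3%). Inside the peaks themselves such a site was found in 7 of 23 (30.4%, 15.6 to 50.9), at Orc1, Orc3, Mcm3, Mcm5, Pola1, Rfc3 and Rpa2, beside 3.67% of the peaks near protein-coding starts.

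E2F-type sites at Mcm3, Rfc3 and Orc3 are shown with 5 bases to either side and the octamer in capitals. Spacing was measured to CCGGAAG where the peak held it and otherwise to CGGAAG, so nearer copies of a shorter form were passed over. At Mcm3, 2 bases separated it from CGGAAG, at Rfc3 13 bases separated it from CCGGAAG and at Orc3 16 bases did.
Mcm3, chr1:20820281-20820298, plus strand: caagtTTTCCCGCcacgg
Rfc3, chr5:151651206-151651223, minus strand: cacgcTTTCGCGCtcgcg
Orc3, chr4:34614971-34614988, minus strand: ctcccTTTCCCGCacgcc
At Pola1 and Rpa2 the distances to CCGGAAG were 57 and 82 bases and at Orc1 154 bases. A CGGAAG outside CCGGAAG lay nearer at Rpa2, at -285 to -280 with the octamer at -310 to -303. The same held at Orc1, with CGGAAG at -84 to -79 and the octamer at 4 to 11. Close spacing was still not shared by all, as Pola1 shows.

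CCAAT, the box of the factor NF-Y, was found around the gene start of 30 of 48 members (62.5%, 48.4 to 74.8), beside 39% of protein-coding genes, at 15 of the 23 with a peak and 15 of the 25 without. Inside the peaks it was in 11 of 23 (47.8%, 29.2 to 67), beside 27.6%. The core CGCATGCG of NRF1, another regulator of housekeeping genes, was at 4 of 48 members, beside 2.61% of protein-coding genes, and these were Cdt1, Pold2, Dna2 and Wdhd1, none of which had a peak (0 of 23 with a peak, interval up to 14.3%). Among protein-coding genes it was at 4.07% of those with a peak and 2.29% of those without. At least 2 copies of CCGGAAG, which include the overlapping pairs, were in 4 of 23 member peaks (17.4%, 6.98 to 37.1), those of Gins4, Pole4, Rfc3 and Rpa3, beside 13.9%. Median GC content around the gene start was 55.7% in members with a peak and 62% in those without, beside 59.3% in all protein-coding genes with a peak and 53.7% in those without.

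**Figure D5:**
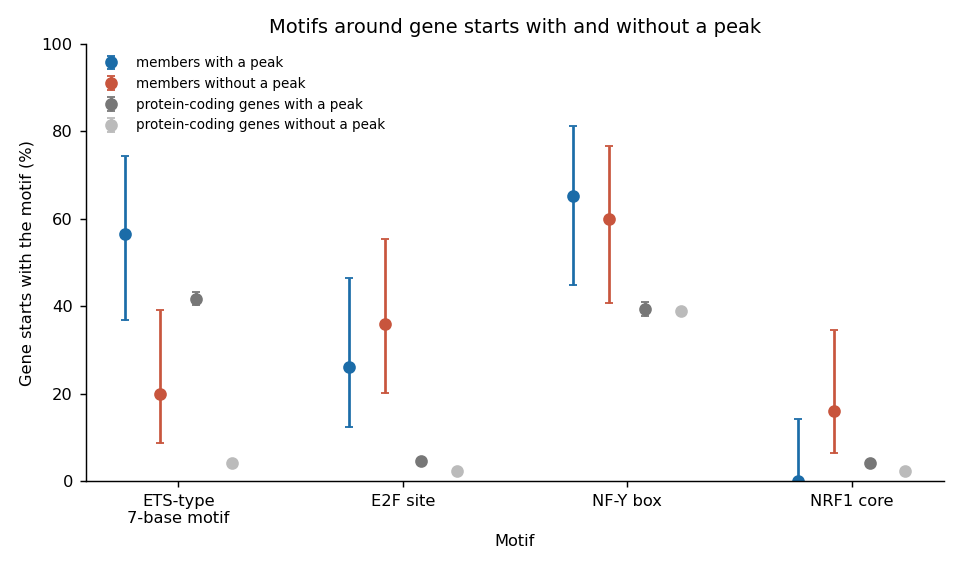
Share of genes, in percent, with each motif from 250 bp upstream to 50 bp downstream of the gene start, for members with and without a peak and for protein-coding genes with and without a peak; bars are Wilson 95% intervals. The ETS-type motif is at 56.5% of members with a peak and 20% of those without, whereas the E2F-type sites are at 26.1% and 36%.

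A list of 41 other replication genes served for comparison. Of these, 17 had a peak (41.5%, 27.8 to 56.6), which differed from the 48 members by 6.45 points with an interval from -13.8 to 25.9. Among genes grouped here under origin firing and helicase activation 6 of 16 had one: Dbf4, the regulatory subunit of the Cdc7 kinase, Topbp1, Mtbp, Donson, Lrwd1, which binds ORC, and Mcm8. Among further fork genes 5 of 13 had one: Chtf8 and Dscc1, subunits of an alternative clamp loader, Primpol, Rnaseh2b and Rnaseh1. None of the 3 topoisomerase genes did. In chromatin replication 6 of 9 did, namely Chaf1b, Nasp, Ssrp1, Supt16, Dnmt1 and Uhrf1. CCGGAAG was in 13 of these 17 peaks (76.5%, 52.7 to 90.4), and their median width was 243 bp (147 to 406), beside 69.6% and 238 bp for the members.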

How the data were processed

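GABPα binding in CD4+ T cells was taken from 1 deposited peak list. The authors' reads were single-end and 36 bp long. They were trimmed with Trimmomatic (bases under quality 20, reads under 30 bases discarded), aligned to mm10 with Bowtie and passed to MACS2 with the input as control and 0.01 as the q value limit. Tool versions are not given in the sources used here. The deposited list holds positions and an empty score column. Its starts were read as 0-based and are printed as 1-based positions of GRCm38. Its strand column was not used, and the input entered through the authors' peak calling only.

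Peaks were placed by distance to every transcript start of GENCODE M21, and sequences were read from the GRCm38.p6 chromosomes. Exact motif matches were counted on both strands. Shares have Wilson intervals and differences Newcombe intervals. The tools were Python 3.11.15, scipy 1.17.1, pysam 0.24.0, samtools 1.23.1, numba 0.67.0 and matplotlib 3.10.9. The scripts were tested on simulated data. The genes, groups and motifs were chosen with earlier results of these data known, every member is named, and the neighbours named have a start within 1000 bp of a member's own or nearest peak.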

Additional observations from a re-analysis of the deposited data

How the results depend on the processing

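Of 95 alternatives, 86 left their value within the set limits. Members with a peak numbered 23 with windows of 500 or 2000 bp, coding transcripts only, peak midpoints or peaks under 50% soft-masked. They numbered 18 when a peak had to cover a start (without Cdc45, Mcm5, Pcna, Pole4 and Rpa2), 20 from gene starts only (without Mcm7, Pole4 and Rfc2) and 19 with peaks at or above the median width of the list (without Mcm5, Orc5, Pcna and Pola1). RefSeq starts, an alternative chosen after seeing the data, gave 20 among 39 members matched, since Gins4, Prim2 and Rfc2 had no entry. RPA fell to 1 gene when a peak had to cover a start. The share of protein-coding genes was 13.9% for covered starts, 17.2% at 500 bp, 16.4% from gene starts, 14% with wide peaks and, both chosen after seeing the data, 18.7% within the members' GC range and 24.2% with 4 to 7 starts. CCGGAAG was at 9 members from 100 bp upstream to 50 bp downstream, and CGGAAG at 29 in the full window. No paired analysis was possible because each group has 1 library. Depth is unknown, so the list cannot tell a gene without binding from one below the cutoff.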
